A study of Homo sapiens with 6 samples.

Results

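The hypoxia pathway was followed through 10 genes in HK-2, a cell line established from the proximal tubule of a human kidney, with and without overexpression of hnRNP-F. The genes are HIF1A and EPAS1, which encode the oxygen-regulated alpha subunits of the hypoxia-inducible factors (HIFs), EGLN1 and EGLN3, which encode prolyl hydroxylases that sense oxygen, and 6 HIF targets, namely VEGFA, ADM, CA9, CA12, NDRG1 and ANKRD37. They were taken by symbol from the count table of the series, and all 10 were found among its 31831 genes. All 10 also passed the low-count filter, which kept 17142 genes for testing.

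All 6 libraries came from HK-2 cells grown at a high glucose concentration, 30 mM, over 72 h. In 3 of them the cells carried the control vector (HG-NC), and in the other 3 they overexpressed hnRNP-F (HG-OE). GEO's labels speak of plasmids and the study's methods of a lentivirus, and neither says whether a line was a clone or a pool. No library is labelled as coming from low oxygen, so the comparison addresses how the pathway's transcripts stood under overexpression in high glucose, not the response to hypoxia itself. The study describes its groups as biological replicates, while its methods speak of parallel wells in each group. Whether the wells came from separately made lines is not stated. The p-values below rest on the spread among these libraries only and may not cover variation between lines. In RNA from whole cultures, fewer cells with a transcript and less of it per cell cannot be told apart.

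A HIF is a pair of an alpha subunit and the constant partner ARNT. In the presence of oxygen, EGLN enzymes hydroxylate prolines of the alpha subunit, the VHL ubiquitin ligase recognizes the mark, and the protein is degraded. When oxygen falls, the alpha subunit is spared, enters the nucleus and drives genes for glycolysis, blood vessel growth, pH control and its own hydroxylases. Much of this control therefore acts on protein that a count of transcripts does not see. In the kidney, HIF-1 is known from tubular epithelium and HIF-2, the EPAS1 product with ARNT, from endothelium and from the interstitial cells that make erythropoietin, while tubular VEGFA supports the capillaries around the tubules.

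The libraries held 25507595 to 29444841 counted read pairs. Levels are given as CPM, which are counts scaled to library size with edgeR's TMM method. HNRNPF, the overexpressed gene, rose from between 304 and 319 CPM in HG-NC to between 423 and 452 CPM in HG-OE, which is 0.48 on the log2 scale. HG-OE replicate 3 stood apart. Its summed level of the 9 listed markers of squamous epithelium was 49.5 CPM, against 0.275 to 0.465 CPM in the other libraries. Its summed level of 10 markers of liver was 680.3 CPM, against 461 and 463 CPM in the other HG-OE libraries and 266 to 277 CPM in HG-NC. Outside that library nearly all of the sum was SERPINA1, at 258 to 275 CPM in HG-NC and 457 and 458 CPM in HG-OE. HG-NC replicate 3 also held some counts of liver markers, with 78 of ALB, 65 of FGA and 53 of APOB. Of 11 proximal tubule markers, 10 were listed and 5 passed the filter. The summed level of the 10 listed was 608 to 662 CPM in HG-NC against 432 to 479 CPM in HG-OE. PAX8 carried most of it and fell (log2 fold change -0.51, adjusted p = 3.04e-06, edgeR), and the other 4 tested did not pass. LRP2 and HNF4A had 0 counts except in HG-OE replicate 3, with 17 and 323 counts, and AQP1 had at most 7. The part of these markers in the results was not tested, and values without HG-OE replicate 3 are given where they bear on a result.

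Of the 10 genes, 8 differed between the groups at an adjusted p under 0.05. All adjusted p-values come from the quasi-likelihood test of edgeR and were adjusted by the Benjamini-Hochberg method over all genes tested. HIF1A, EGLN1, VEGFA, CA9 and CA12 fell in HG-OE, and EGLN3, ADM and NDRG1 rose. EPAS1 and ANKRD37 did not pass. The share that passed was 51.8% among all genes tested, with 25.9% higher and 25.9% lower, so passing this test was common in these libraries. A change of at least 2-fold was seen only in CA9 and CA12 among the 10, both lower, where 5.82% of all genes tested had such a change in either direction and 2.13% had one toward lower levels. The CPM values of the groups did not overlap in 8 of the 10 genes and in 59.0% of all genes tested. The same 3 rises and 5 falls were found without HG-OE replicate 3.

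**Figure D1:**
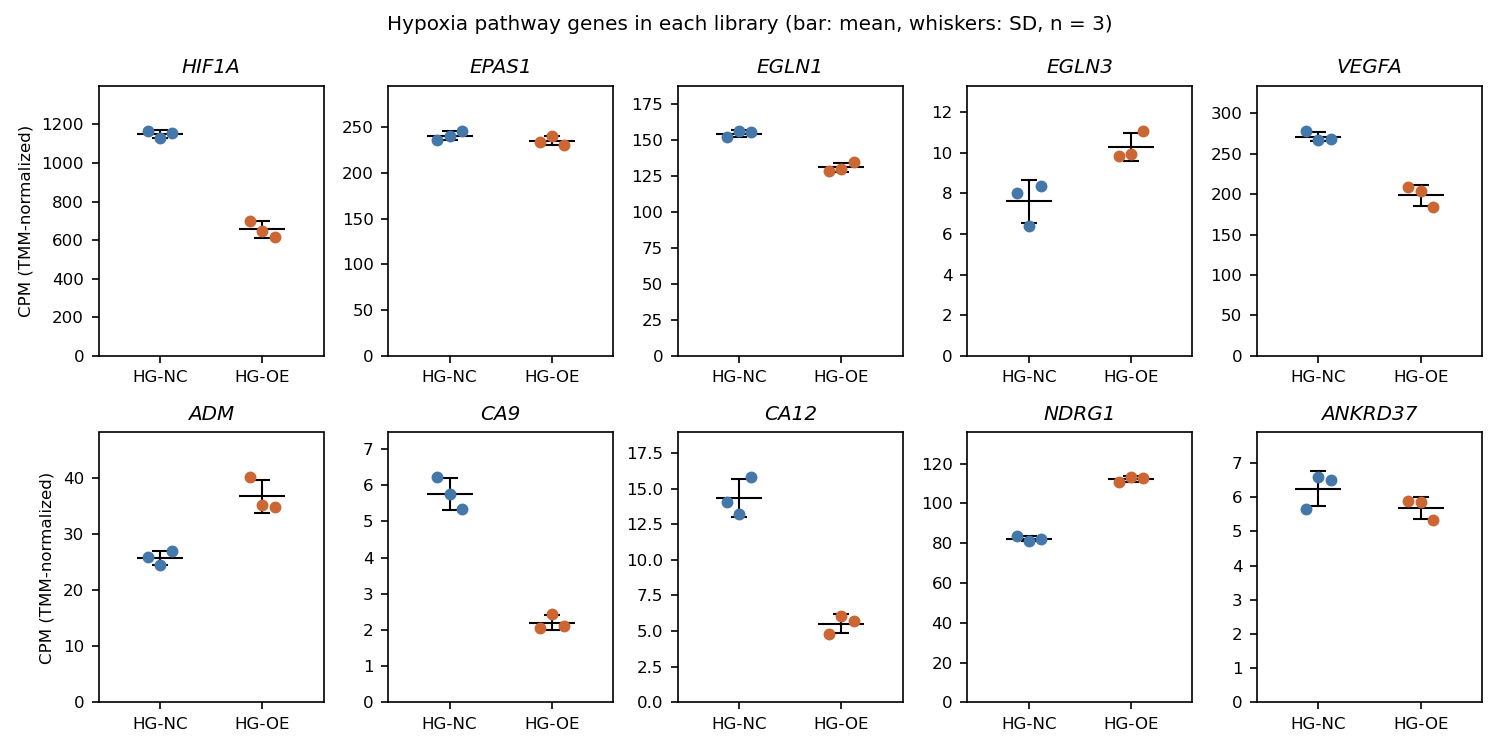
CPM of each of the 10 genes in each library, with HG-NC in blue and HG-OE in orange; the horizontal bar is the mean and the whiskers are the SD of 3 libraries, and each vertical axis starts at 0. The groups are apart for every gene except EPAS1 and ANKRD37, and CA9 and CA12 show the largest proportional falls, to 2.21 and 5.54 CPM on average.

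HIF binds the short hypoxia response element, whose core is ACGTG or GCGTG on either strand. RefSeq promoter windows on GRCh38.p14, from 250 bases before to 50 bases after a start site, were matched for 8 of the 10 genes, and VEGFA and NDRG1 were not matched. Either core was found in a window of 7 of these 8 genes, EGLN3 being the exception, where 48.4% of all 35116 windows held it. ACGTG alone was found in EGLN1, CA9 and ANKRD37, where 21.4% of all windows held it. The 4 stretches of 100 bases upstream of the start site are printed because they come from targets that behaved differently, with CA9 and EGLN1 lower, ADM higher and ANKRD37 not past the test. Capitals mark the cores, read on either strand, and each stretch runs 5′ to 3′ on the strand of its gene.

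CA9, chr9:35673828-35673927, plus strand: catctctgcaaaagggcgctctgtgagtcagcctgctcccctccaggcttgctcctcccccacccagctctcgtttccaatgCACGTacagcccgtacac
EGLN1, chr1:231422288-231422387, minus strand: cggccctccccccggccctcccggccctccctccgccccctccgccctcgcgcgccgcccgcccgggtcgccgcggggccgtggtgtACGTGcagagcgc
ADM, chr11:10304924-10305023, plus strand: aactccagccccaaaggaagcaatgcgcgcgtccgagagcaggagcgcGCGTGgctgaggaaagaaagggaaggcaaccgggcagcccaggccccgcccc
ANKRD37, chr4:185396641-185396740, plus strand: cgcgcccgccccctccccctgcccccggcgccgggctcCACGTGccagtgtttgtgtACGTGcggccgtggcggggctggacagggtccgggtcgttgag

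In CA9, the core starts 18 bases before the start site and reads on the opposite strand. In EGLN1 it starts 13 bases before the start site, and in ADM, as GCGTG, 101 bases before it. ANKRD37 holds 3 matches, of which a pair overlaps because CACGTG contains the core on both strands, and its RefSeq start site lies inside the longer GENCODE gene. A match of these letters is not a measured binding site, and the genes that hold it moved in both directions or did not pass.

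HIF1A (ENSG00000100644.17, chromosome 14 of GRCh38, 61695513 to 61748259) had the highest level of the 10, by counts and also per length of the gene model. Its level was 1166, 1129.6 and 1155 CPM in HG-NC replicates 1, 2 and 3 and 702, 647 and 618 CPM in HG-OE replicates 1, 2 and 3. Each HG-OE library lay far below each HG-NC library, and the spread within a group was small beside the gap. On the log2 scale the change was -0.81, with a standard error of 0.0440 and an adjusted p of 8.70e-09 (edgeR), and the level fell by 43.0%, on at least 18105 counts in each library. The exact two-sided permutation test gave p = 0.1, the smallest that 3 libraries against 3 allow. It fell by 0.77 on the log2 scale without HG-OE replicate 3, and the log2 fold change lay between -0.86 and -0.77 whichever library was left out.

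The HIF1A locus holds other gene models that share its bases. HIF1A-AS3, on the opposite strand, had 109 to 138 counts in HG-NC and 60 to 74 in HG-OE (log2 fold change -0.97, adjusted p = 3.39e-04, edgeR). HIF1A-AS1, also opposite, had 211 to 226 counts in HG-NC and 214 to 239 in HG-OE, and did not pass (adjusted p = 0.668, edgeR). Another model, ENSG00000258964, lies on the same strand and had 1336 to 1458 counts in HG-NC and 598 to 793 in HG-OE (log2 fold change -1.11, adjusted p = 1.24e-07, edgeR). The libraries were made with a kit that keeps the strand, but whether strand was used in counting is not stated in the sources used here, so reads of overlapping models may be split uncertainly. These models held far fewer counts than HIF1A.

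EPAS1 (ENSG00000116016.14, chromosome 2, 46293667 to 46386697) encodes the alpha subunit of HIF-2. Its level was 236, 240.5 and 246 CPM in HG-NC replicates 1, 2 and 3 and 233, 240.2 and 230.7 CPM in HG-OE replicates 1, 2 and 3. The groups overlapped. Its log2 fold change of -0.036 was within its standard error of 0.0373 and did not pass, at an adjusted p of 0.443 (edgeR). The permutation test gave an exact two-sided p = 0.2. FPKM values divide by a length that the authors took for each gene. The lengths were not checked here, so levels of different genes can be set side by side only roughly. A ratio between genes depends on these lengths, while its change between the groups does not. Within each library, the FPKM of HIF1A was 6.65 to 6.996 times that of EPAS1 in HG-NC and 3.79 to 4.26 times in HG-OE, without overlap (exact two-sided permutation p = 0.1).

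The partner ARNT, which pairs with either alpha subunit, averaged 28.8 ± 2.10 CPM in HG-NC against 28.4 ± 0.857 CPM in HG-OE (SD, n = 3 in each group) and did not pass (adjusted p = 0.811, edgeR). Its relative ARNT2 had 3.38 ± 0.220 and 3.35 ± 0.747 CPM and did not pass either (adjusted p = 0.957, edgeR). HIF3A, a further alpha subunit, had 1 count in all 6 libraries together. CITED2, a HIF target whose protein competes with HIF for a coactivator, fell from 374 ± 12.4 to 237 ± 11.8 CPM (log2 fold change -0.66, adjusted p = 5.97e-08, edgeR). The median log2 fold change of its neighbours within 10 Mb was -0.41, which left -0.25 for the gene.

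EGLN1 (ENSG00000135766.9, chromosome 1, 231363751 to 231422287) encodes PHD2, the main prolyl hydroxylase of HIF-1 alpha under normal oxygen. Its level was 152, 156 and 155 CPM in HG-NC replicates 1, 2 and 3 and 128.5, 129 and 135 CPM in HG-OE replicates 1, 2 and 3. The HG-OE libraries lay below the HG-NC libraries by a margin larger than the spread within either group. This was a log2 fold change of -0.24, whose standard error was 0.0386 and whose adjusted p was 1.61e-04 (edgeR), so that the level fell by 15.2%. An overlapping model on the same strand, ENSG00000287856, fell as well, from 204 to 242 counts in HG-NC to 128 to 152 in HG-OE (log2 fold change -0.79, adjusted p = 7.03e-05, edgeR).

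EGLN3 (ENSG00000129521.15, chromosome 14, 33924227 to 34462774) encodes PHD3, a hydroxylase that HIF itself induces. Its level was 8.02, 6.39 and 8.37 CPM in HG-NC replicates 1, 2 and 3 and 9.82, 9.93 and 11.1 CPM in HG-OE replicates 1, 2 and 3. Each HG-OE library was higher than each HG-NC library, from counts of only 173 to 324. EGLN3 rose by 0.44 on the log2 scale, at a standard error of 0.117 and an adjusted p of 0.00684 (edgeR). The value ranged from 0.33 to 0.52 with 1 library left out, where the largest adjusted p was 0.0391. SPTSSA, which overlaps EGLN3 on the same strand, had 1052 to 1141 counts in HG-NC and 1198 to 1246 in HG-OE and did not pass (adjusted p = 0.700, edgeR). The FPKM of EGLN1 was 25.4 to 33.2 times that of EGLN3 in HG-NC and 16.7 to 17.9 times in HG-OE, without overlap (exact two-sided permutation p = 0.1).

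The oxygen sensing list held 16 genes, for HIF subunits and the proteins that act on them, and 15 were tested. It includes HIF1A, EPAS1, EGLN1 and EGLN3, whose results are given above. Of the 15, 5 rose, 6 fell and 4 did not pass. The share that passed was 73.3%, beside 51.8% of all genes tested, and the median log2 fold change was -0.020 against 0.011 over all genes tested. The third hydroxylase, EGLN2, had few counts, 47 to 78 per library, and did not pass (adjusted p = 0.494, edgeR). Its counted level was 2.24 ± 0.367 CPM in HG-NC against 2.52 ± 0.217 CPM in HG-OE (mean ± SD, n = 3). Gene models that overlap EGLN2 were not looked up, so reads assigned elsewhere may be missing from this level. P4HTM, a hydroxylase of the endoplasmic reticulum membrane, rose from 17.2 ± 1.91 to 25.9 ± 1.39 CPM (log2 fold change 0.59, adjusted p = 4.14e-05, edgeR). HIF1AN, the asparaginyl hydroxylase that limits HIF's hold on coactivators, fell by 0.13 on the log2 scale (adjusted p = 0.0193, edgeR). That call was lost without HG-NC replicate 2 and without HG-NC replicate 3, at an adjusted p of 0.0575 and 0.0587 (edgeR).

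The VHL ligase did not move as a unit. VHL, the subunit that recognizes hydroxylated HIF, rose from 61.9 ± 3.15 to 90.4 ± 4.83 CPM (log2 fold change 0.55, adjusted p = 1.49e-06, edgeR). The RING subunit RBX1 and the adaptor ELOB rose by log2 fold changes of 0.497 and 0.37. The scaffold CUL2 and the second adaptor ELOC fell, with log2 fold changes of -0.39 and -0.22. VHL and P4HTM lie on chromosome 3. The 73 neighbours of VHL had a median of 0.43 on the log2 scale and the 174 of P4HTM had 0.51. With that median removed, VHL stood at 0.11 and P4HTM at 0.085 on the log2 scale. The 180 neighbours of RBX1 had a median of 0.32, which left 0.17, and the 153 of ELOB had 0.22, which left 0.14. ELOC stood at -0.098 and CUL2 at -0.31 after the same step. Whether the shift of the region and that of the gene share a source was not tested.

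**Figure D2:**
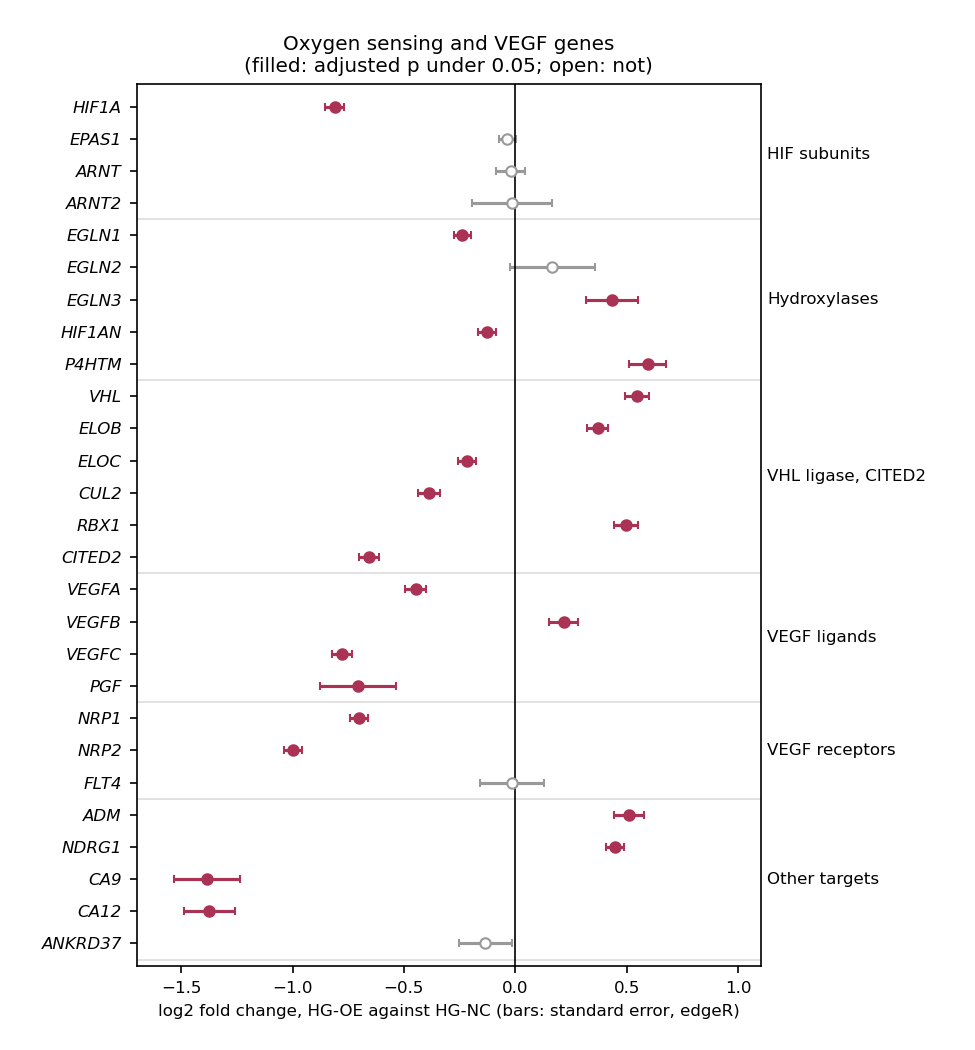
Log2 fold change of HG-OE against HG-NC (horizontal axis) for tested genes of oxygen sensing, the VEGF system and the remaining targets, grouped by role; bars are standard errors, and filled points have an adjusted p under 0.05. HIF1A lies at -0.81 while EPAS1 and ARNT lie near 0, and of the VEGF ligands only VEGFB lies above 0, at 0.22.

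VEGFA (ENSG00000112715.25, chromosome 6, 43770184 to 43786487) encodes the main growth factor of blood vessels and is a classic HIF target. Its level was 278, 267.6 and 267.9 CPM in HG-NC replicates 1, 2 and 3 and 209, 204 and 184 CPM in HG-OE replicates 1, 2 and 3. Every HG-OE library was lower, and HG-OE replicate 3 was the lowest. In the fit VEGFA fell by 26.7%, or 0.45 on the log2 scale with a standard error of 0.0472, at an adjusted p of 3.53e-06 (edgeR). The exact two-sided permutation test gave its smallest possible p of 0.1. Without HG-OE replicate 3 the log2 fold change was -0.39, and the 116 genes within 10 Mb had a median of 0.048. The model on the opposite strand, ENSG00000272114, had only 7 to 15 counts in a library.

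Of 10 VEGF ligands and receptors, 7 were tested. Of these, 5 fell, 1 rose and 1 did not pass. Of all genes tested, 51.8% passed and 25.9% were lower. The median log2 fold change of the list was -0.70 against 0.011 over all genes tested. VEGFC, the lymphatic ligand, fell from 133 ± 4.70 to 77.3 ± 3.38 CPM (mean ± SD, n = 3; log2 fold change -0.78, adjusted p = 1.70e-08, edgeR). The 46 neighbours of VEGFC within 10 Mb had a median of -0.26, which left -0.52. PGF, the placental growth factor, fell from 4.93 ± 0.542 to 3.02 ± 0.585 CPM (log2 fold change -0.70, adjusted p = 0.00330, edgeR). For PGF the median was 0.10, which left -0.81. VEGFB rose by 0.22 on the log2 scale (adjusted p = 0.0136, edgeR), a call lost without HG-NC replicate 1 (adjusted p = 0.0630) or HG-OE replicate 1 (adjusted p = 0.0714). Its neighbours had a median of 0.20, which left 0.016.

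Of the ligands tested, VEGFC had the highest deposited FPKM, with a mean of 45.4 in HG-NC and 26.2 in HG-OE. VEGFB had 19.2 and 22.1, and VEGFA had 16.8 and 12.2. By counts VEGFA was the highest. Its mean in HG-NC was 271 CPM against 133 CPM for VEGFC, and in HG-OE 199 against 77.3. The order by FPKM and the size of the ratio below thus depend on the authors' lengths, which were not checked. The FPKM of VEGFA was 0.365 to 0.375 times that of VEGFC in HG-NC and 0.454 to 0.474 times in HG-OE. The groups did not overlap (exact two-sided permutation p = 0.1), since VEGFC fell by more.

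The neuropilins, which are coreceptors for VEGFs, were the receptors with high counts. NRP1 fell from 219 ± 5.36 to 135 ± 4.53 CPM (mean ± SD, n = 3; log2 fold change -0.70, adjusted p = 1.54e-08, edgeR). NRP2 fell from 232 ± 3.25 to 116 ± 4.96 CPM (log2 fold change -0.997, adjusted p = 8.24e-10, edgeR), just short of 2-fold, and with 1 library left out it lay between -1.02 and -0.96. NRP2 lies on chromosome 2, where its 71 neighbours had a median of -0.39, and with this removed its value was -0.61. Of the signalling receptors, FLT4 had 3.66 ± 0.134 and 3.63 ± 0.211 CPM and did not pass (adjusted p = 0.935, edgeR), and FLT1 had at most 3 counts in any library. KDR was not found among the 31831 genes of the series, so it has no value here. Endothelial markers were low, with a summed level of 13.9 to 14.9 CPM in HG-NC against 7.68 to 8.17 CPM in HG-OE over 6 genes. The sum followed ESAM, which fell from a mean of 13.5 to 6.54 CPM, while VWF, the other endothelial marker tested, rose from 6 to 7 counts in HG-NC to 33, 28 and 12 counts in HG-OE replicates 1, 2 and 3 (log2 fold change 1.73, adjusted p = 0.00444, edgeR). CDH5 and TEK had at most 4 counts. The part of these markers in the values of the VEGF genes was not tested.

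By the Pearson correlation of log2 CPM over the 6 libraries, the genes whose pattern was most like that of VEGFA were ERN1, GPATCH2, JADE1, LIN54 and CPXM1, with r of 0.998 to 0.999 among 11561 protein-coding genes with a mean of at least 100 counts. These points share the contrast between the groups, and 22.8% of the genes compared had an r over 0.9, so the order describes these libraries only. All of the named genes were lower in HG-OE, which follows from choosing them by likeness to VEGFA, and their tests add nothing to it. ERN1, the stress sensor IRE1 of the endoplasmic reticulum, averaged 43.8 CPM in HG-NC against 19.9 CPM in HG-OE (log2 fold change -1.14, adjusted p = 3.20e-07, edgeR).

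CA9 and CA12 encode carbonic anhydrases of the cell surface, which turn carbon dioxide into bicarbonate and acid and help hypoxic cells to hold their pH. CA9 (ENSG00000107159.13, chromosome 9, 35673928 to 35681159) had 6.21, 5.76 and 5.33 CPM in HG-NC replicates 1, 2 and 3 and 2.07, 2.44 and 2.12 CPM in HG-OE replicates 1, 2 and 3. The lowest HG-NC library was more than 2-fold above the highest HG-OE library, on 149 to 158 counts against 60 to 71. The fitted log2 fold change of -1.38 had a standard error of 0.148 and an adjusted p of 3.99e-06 (edgeR), so that HG-OE stood at 0.383 times the HG-NC level. ARHGEF39, which overlaps it on the opposite strand, had 172 to 225 counts in HG-NC and 238 to 281 in HG-OE and did not pass (adjusted p = 0.0576, edgeR).

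CA12 (ENSG00000074410.14, chromosome 15, 63321378 to 63381846) had 14.1, 13.2 and 15.8 CPM in HG-NC replicates 1, 2 and 3 and 4.79, 6.08 and 5.74 CPM in HG-OE replicates 1, 2 and 3. The groups lay far apart. CA12 changed by -1.37 on the log2 scale, at a standard error of 0.115 and an adjusted p of 4.03e-07 (edgeR), which left 0.386 times the HG-NC level, and its 100 neighbours had a median near 0, at -0.0048. Both genes kept more than a 2-fold fall with any 1 library left out, with values from -1.46 to -1.32 for CA9 and from -1.45 to -1.28 for CA12. Within libraries, the FPKM of CA12 was 0.522 to 0.681 times that of CA9 in HG-NC and 0.535 to 0.629 times in HG-OE, which overlapped (exact two-sided permutation p = 0.8).

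Of the 15 carbonic anhydrases examined, 7 were tested, and 3 fell, 1 rose and 3 did not pass. This is 57.1%, near the 51.8% of all genes tested. The cytosolic CA2 had the highest level, by CPM and by FPKM, with a mean of 40.8 FPKM in HG-NC. It fell from 91.5 ± 1.99 to 72.7 ± 2.43 CPM (mean ± SD, n = 3; log2 fold change -0.33, adjusted p = 2.43e-05, edgeR). CA13, also cytosolic, rose by 0.32 on the log2 scale (adjusted p = 0.0299, edgeR). That call was lost without HG-NC replicate 1 or 2 and without HG-OE replicate 1, where the adjusted p was 0.0525, 0.141 and 0.145 (edgeR).

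ADM (ENSG00000148926.10, chromosome 11, 10305073 to 10307397) encodes adrenomedullin, a vasodilator peptide that hypoxia induces. Its level was 25.8, 24.4 and 26.9 CPM in HG-NC replicates 1, 2 and 3 and 40.0, 35.2 and 34.8 CPM in HG-OE replicates 1, 2 and 3. Every library of HG-OE was higher, and replicate 1 was the highest. ADM rose by 42.6%, a log2 fold change of 0.51 whose standard error was 0.0674 and whose adjusted p was 2.60e-05 (edgeR). The value was 0.55 without HG-OE replicate 3. Of the 8 genes of the adrenomedullin system, 4 were tested, and ADM was the 1 that passed. PAM, the enzyme that amidates the peptide, had 146 ± 4.23 and 142 ± 2.63 CPM (mean ± SD, n = 3; adjusted p = 0.459, edgeR). The receptor CALCRL and its partner RAMP2 had means near 1 CPM in both groups, at 1.04 and 0.824 CPM for CALCRL and 1.06 and 1.25 CPM for RAMP2, and neither passed. ADM2 had 70 counts in HG-OE replicate 3 and at most 6 elsewhere.

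NDRG1 (ENSG00000104419.17, chromosome 8, 133237175 to 133302022) encodes a stress-responsive protein of differentiation that HIF induces. Its level was 83.8, 81.1 and 82.2 CPM in HG-NC replicates 1, 2 and 3 and 111, 113.1 and 113.0 CPM in HG-OE replicates 1, 2 and 3. The libraries of each group lay close together and the groups far apart. NDRG1 rose by 0.45 on the log2 scale, with a standard error of 0.0391 and an adjusted p of 6.20e-07 (edgeR), a rise of 36.3%, with 0.44 to 0.46 when any 1 library was left out. No other gene of the NDRG family rose past the test. NDRG2 fell by 0.37 on the log2 scale (adjusted p = 0.00677), and NDRG3 and NDRG4, with log2 fold changes of -0.078 and -0.051, did not pass (adjusted p = 0.180 and 0.699, edgeR).

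ANKRD37 (ENSG00000186352.9, chromosome 4, 185396021 to 185400628) encodes an ankyrin repeat protein known mainly as a HIF-1 target. Its level was 5.66, 6.58 and 6.51 CPM in HG-NC replicates 1, 2 and 3 and 5.89, 5.87 and 5.33 CPM in HG-OE replicates 1, 2 and 3. The groups overlapped, and the log2 fold change of -0.13 did not pass (standard error 0.1199, adjusted p = 0.372 by edgeR, exact two-sided permutation p = 0.3). UFSP2, which overlaps it on the opposite strand, had 1086 to 1255 counts in HG-NC and 745 to 818 in HG-OE (log2 fold change -0.70, adjusted p = 8.24e-07, edgeR), against 144 to 182 counts for ANKRD37.

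A wider list of 59 HIF targets outside glycolysis, which includes 8 of the 10 genes, was examined in the same fit. Of these, 57 were tested, with 17 higher, 22 lower and 18 that did not pass. The share that passed was 68.4% against the 51.8% of all genes tested, and the median log2 fold change was -0.046. Without HG-OE replicate 3, 18 were higher and 24 lower. Next to CA9 and CA12, the largest falls were those of PLOD2 and IGFBP3. PLOD2, a lysyl hydroxylase of collagen, fell from 366 ± 12.1 to 182 ± 3.10 CPM (mean ± SD, n = 3; log2 fold change -1.005, adjusted p = 5.10e-10, edgeR). This was at the edge of 2-fold. The value was -0.999 without HG-OE replicate 3 and lay between -1.02 and -0.97 whichever library was left out. IGFBP3, which binds insulin-like growth factors, fell from 196 ± 5.55 to 107 ± 10.7 CPM (log2 fold change -0.88, adjusted p = 6.18e-08, edgeR). PPP1R3C, which promotes glycogen storage, fell by 0.65 on the log2 scale.

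Among genes with a mean of at least 100 counts, the largest rises of that list were in BHLHE40, ANGPTL4, SPAG4, PPFIA4, MIR210HG and EFNA1. BHLHE40, a transcriptional repressor of the clock and of hypoxia, rose from 54.4 ± 2.08 to 92.3 ± 2.34 CPM (mean ± SD, n = 3; log2 fold change 0.76, adjusted p = 2.04e-08, edgeR). It lies on chromosome 3 and its 57 neighbours had a median of 0.49, so that 0.27 was left with the median removed. ANGPTL4, an inhibitor of lipoprotein lipase, rose from a mean of 40.4 to 66.1 CPM (log2 fold change 0.71, adjusted p = 1.78e-07, edgeR), and its neighbours had a median of -0.056. MIR210HG, the host transcript of a microRNA of hypoxia, rose by 0.53, SPAG4 by 0.66, PPFIA4 by 0.61 and the ephrin EFNA1 by 0.52, all on the log2 scale.

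Of 20 HIF targets in glucose uptake and glycolysis, all were tested, with 8 higher, 5 lower and 7 that did not pass. The share that passed was 65.0%, beside 51.8% of all genes tested, and the median log2 fold change was 0.081. PFKFB4, which sets the level of a glycolytic activator, rose from 22.9 ± 0.589 to 43.6 ± 1.16 CPM (mean ± SD, n = 3; log2 fold change 0.93, adjusted p = 1.63e-08, edgeR). It lies on chromosome 3, where its 173 neighbours had a median of 0.51, and with this removed its value was 0.42. Its relative PFKFB3 fell from 325 ± 4.24 to 255 ± 13.2 CPM (log2 fold change -0.35, adjusted p = 1.08e-05, edgeR). PFKP, PKM, PGAM1 and GAPDH rose by 0.51, 0.38, 0.27 and 0.26, while HK2, ENO1, SLC2A3 and PDK1 had log2 fold changes of -0.33, -0.31, -0.29 and -0.28. With the median of the neighbours removed, PDK1 turned to 0.039, HK2 stood at -0.066, ENO1 at -0.16 and SLC2A3 at -0.31. SLC2A1, the glucose transporter GLUT1, rose by 0.18, or 0.10 with that median removed, a call lost without HG-NC replicate 1 (adjusted p = 0.0511) or HG-OE replicate 2 (adjusted p = 0.0584, edgeR). ALDOC passed with a log2 fold change of 2.73 that rested on HG-OE replicate 3, which had 135 counts against 17 and 10 in the other HG-OE libraries and 6 to 9 in HG-NC. Without that library or HG-OE replicate 1 it fell below the low-count filter, and without HG-NC replicate 2 or 3 the adjusted p was 0.0590 and 0.0575 (edgeR). Without HG-OE replicate 3, 9 genes of the list were higher and 5 lower. ALDOA, counted among those that did not pass (adjusted p = 0.0678, edgeR), had only 59 to 163 counts per library. Gene models that overlap ALDOA were not looked up, so reads assigned elsewhere may be missing from its level.

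**Figure D3:**
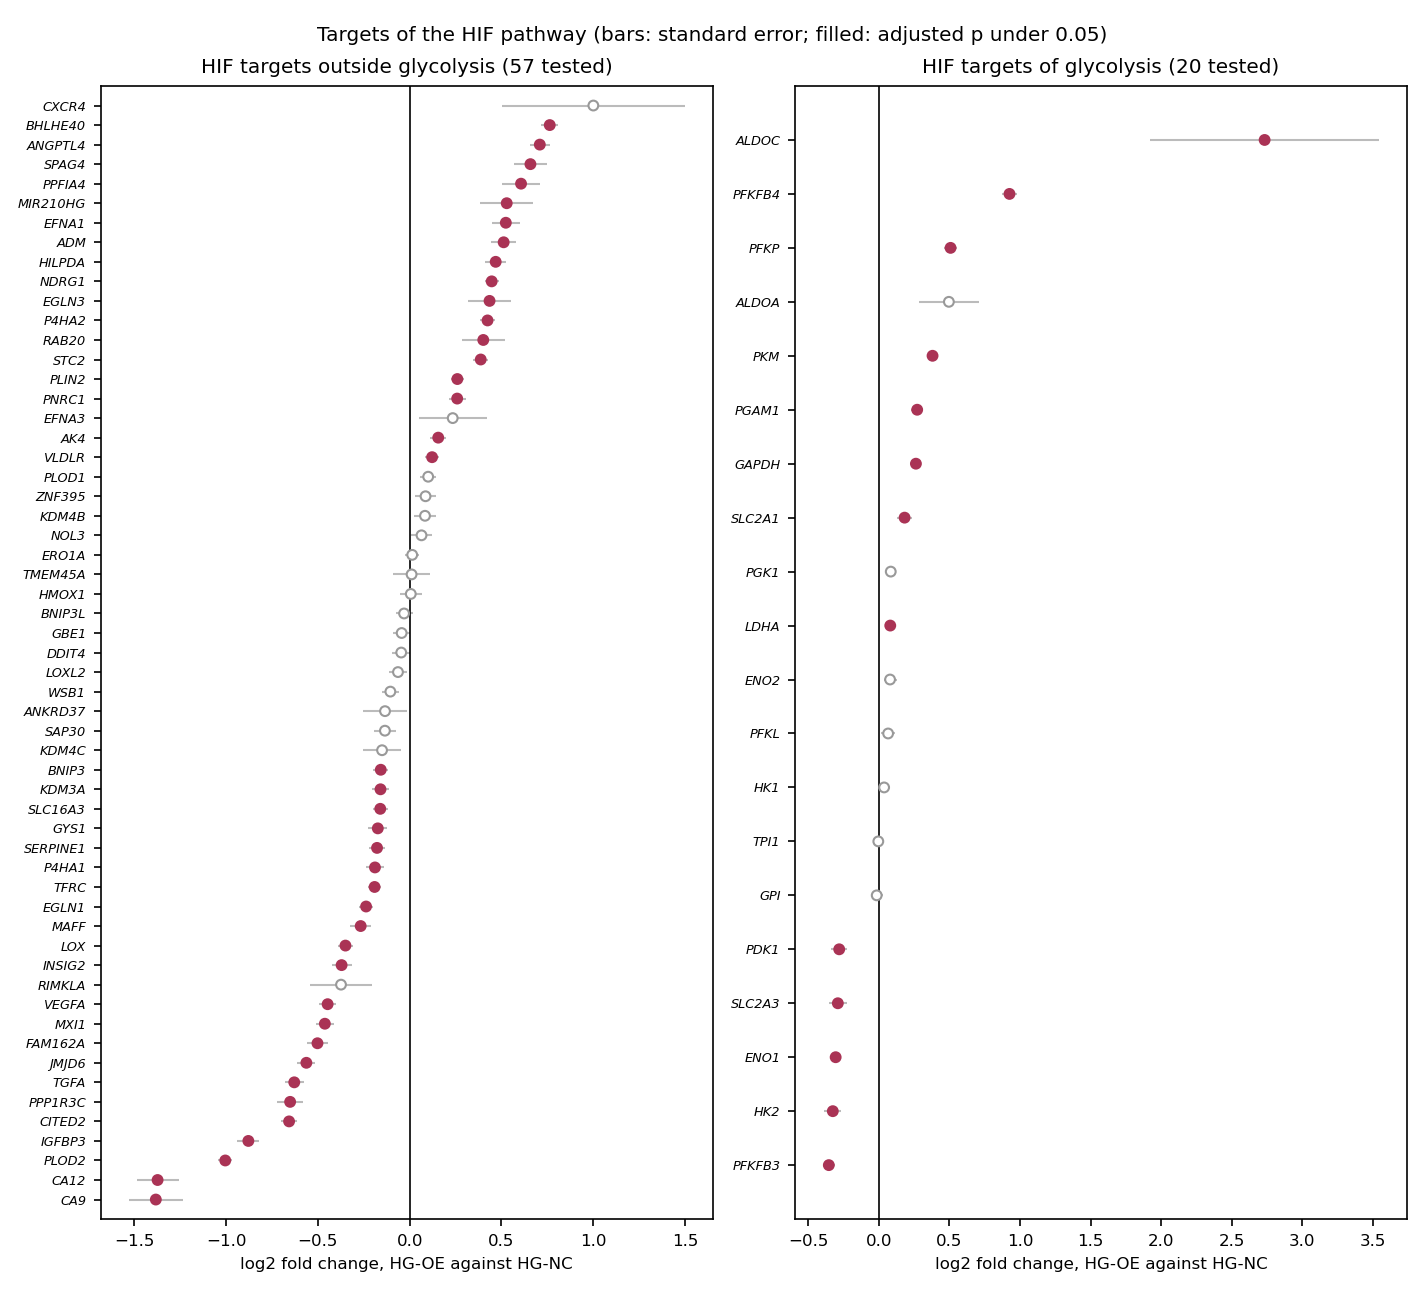
Log2 fold change of HG-OE against HG-NC (horizontal axis) for each tested HIF target, ranked within the list outside glycolysis (left, 57 genes) and the list of glycolysis (right, 20 genes); bars are standard errors, and filled points have an adjusted p under 0.05. Targets lie on both sides of 0 in both lists, from -1.38 for CA9 to 0.76 for BHLHE40 among those that passed on the left.

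Genes close to each other often shifted together in these libraries, so each of the 10 genes was set beside the well-counted genes within 10 Mb. EPAS1 and ANKRD37, the genes that did not pass, were those with the most shifted surroundings. The 70 neighbours of EPAS1 had a median log2 fold change of -0.33, and 63 of them were lower in HG-OE. With this median removed, EPAS1 stood at 0.29. The 28 neighbours of ANKRD37 had a median of -0.31, and with it removed the gene stood at 0.17. For the 8 genes that passed, the medians lay between -0.076 and 0.12, and removing them left the direction of each as it was. VEGFA went from -0.45 to -0.495, HIF1A from -0.81 to -0.75 and EGLN1 from -0.24 to -0.16. Why the regions differ was not tested.

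**Figure D4:**
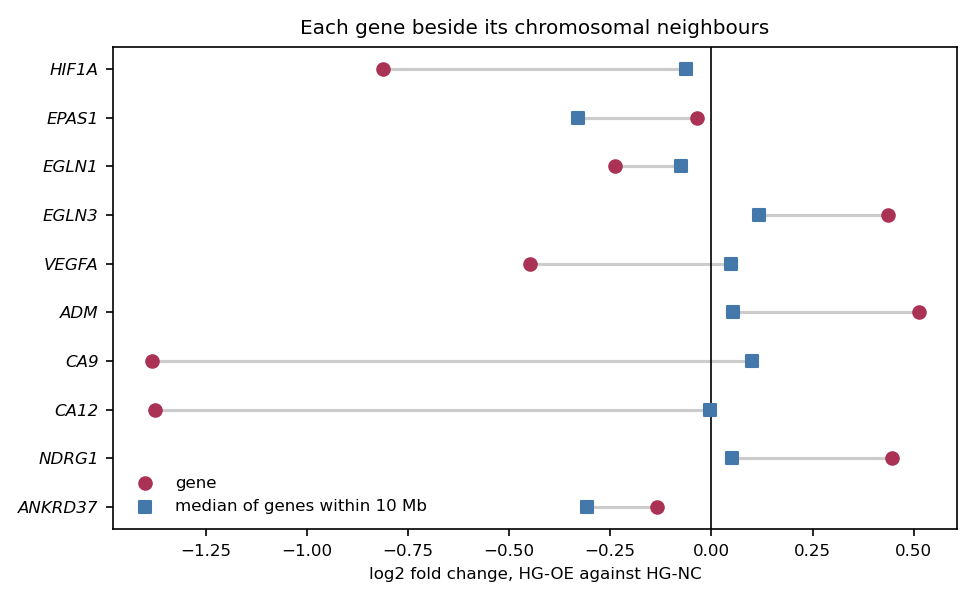
Log2 fold change of each of the 10 genes (red circles) and the median log2 fold change of the well-counted genes within 10 Mb of it (blue squares), HG-OE against HG-NC. EPAS1 and ANKRD37 lie above the medians of their regions, -0.33 and -0.31, while the other medians lie close to 0.

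By the deposited FPKM, the order of the 10 genes in HG-NC ran from HIF1A, with a mean of 199.8 FPKM, through EPAS1 (29.5), EGLN1 (25.6), VEGFA (16.8), ADM (9.89), NDRG1 (6.14), CA9 (3.21), ANKRD37 (2.48) and CA12 (1.84) to EGLN3 (0.923). In HG-NC, the libraries of neighbours in this order did not overlap. In HG-OE, HIF1A, at 113 FPKM, EPAS1 and EGLN1 were again the top genes, followed by ADM, at 13.96 FPKM, with VEGFA next, at 12.2 FPKM. CA9 and CA12 were the lowest there, at 1.21 and 0.700 FPKM, and CA9 overlapped with EGLN3, at 1.24 FPKM. By counts VEGFA stayed far above ADM, with 199 against 36.7 CPM in HG-OE. The order across genes depends on the lengths that the authors divided by, which were not checked, so it is not an order of transcript abundance.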

How the data were processed

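RNA-seq was performed on 3 HG-NC and 3 HG-OE libraries of poly(A) RNA. Per the study's methods and GEO's processing notes, reads were trimmed by the authors and mapped to GRCh38 in HISAT2, with up to 4 mismatches, and only unique alignments were kept. The deposited counts are whole read pairs per gene without normalization, 25507595 to 29444841 per library, and the deposited FPKM values are the authors' own, rounded to 2 decimals. ComBat_seq is named for batch correction. Whether it entered the counts, and which batches it used, is not given in the sources used here, and no batch term was fitted.

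Counts were analysed with edgeR 4.0.16 in R 4.3.3 (TMM, default low-count filter, quasi-likelihood test, Benjamini-Hochberg adjustment over 17142 genes). Standard errors follow from the quasi-likelihood F statistic. The biological coefficient of variation was 0.0683. Alternatives were DESeq2 1.42.0 (size factors and Wald test), limma 3.58.1 on log2(FPKM + 1) and log2(FPKM + 0.1), other filters, a replicate block and leaving out libraries. Neighbours are tested genes with a mean of at least 100 counts whose starts lie within 10 Mb, placed with GENCODE 44 on GRCh38. Replicates of a group differed beyond counting noise, with a chi-square of 2.21 to 12.0 per gene.

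The 10 genes and all lists were chosen with earlier results of these data known. Named are the 10 genes, HNRNPF, the tested genes of the oxygen sensing, VEGF, adrenomedullin and NDRG lists, up to 6 largest rises and falls of the other lists (adjusted p under 0.05, mean of at least 100 counts), and the 5 genes most like VEGFA. ALDOA, ALDOC, ADM2, FLT1, HIF3A and the overlapping models were named after their values were seen. The tests were first checked on simulated counts in which 200 genes changed, far fewer than passed here, and no library stood apart. That check does not give error rates for data like these.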

Additional observations from a re-analysis of the deposited data

How the results depend on the processing

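The 10 genes kept their direction and their side of the threshold under the size factors of DESeq2, without the low-count filter, with at least 10 counts in every library, under the Wald test of DESeq2, with limma on both FPKM scales, with the replicate block and without any 1 library; 8 passed in each setting. On log2(FPKM + 1) the values of the genes with low FPKM shrank, to -0.93 for CA9 and -0.74 for CA12. With the median of the neighbours removed, EPAS1 went to 0.29, ANKRD37 to 0.17, EGLN1 to -0.16, NDRG1 to 0.39 and HNRNPF to 0.39, shifts larger than the spread between libraries. Libraries with the same number did not deviate together (Pearson correlations of -0.027, 0.030 and -0.00099 across genes). These values cannot tell whether such libraries were prepared together. With the block 8849 of all genes passed, against 8887 without it. With 1 library left out, 7729 to 9355 of all genes passed, 37 to 42 HIF targets outside glycolysis, 11 to 14 of glycolysis, 10 to 11 genes of oxygen sensing, 5 to 6 of the VEGF list and 3 to 4 carbonic anhydrases. Without the low-count filter, 2 genes of the adrenomedullin system passed, since ADM2 was then tested. The low-count genes EGLN3, CA9 and ANKRD37 limit precision most, with standard errors of 0.117 to 0.148.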
